A study of Arabidopsis thaliana with 12 samples.

Results

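The salicylic acid (SA) pathway genes described here are 10 loci of *A. thaliana*, taken by locus identifier from a count table of 38618 loci. They comprise the synthesis genes ICS1 (AT1G74710) and EDS5 (AT4G39030), the immune signalling genes EDS1 (AT3G48090) and PAD4 (AT3G52430), the transcription factor genes CBP60G (AT5G26920) and SARD1 (AT1G73805), the SA receptor gene NPR1 (AT1G64280) and the pathogenesis-related genes PR1 (AT2G14610), PR2 (AT3G57260) and PR5 (AT1G75040). Of these 10 genes, 9 had enough counts to be tested. PR1 did not and is given by its values only. RNAseq was made from leaves of *A. thaliana* Col-0 plants, which the study calls shoots. Plants of 7 days had been moved to a nutrient-poor medium (PNM) and, after 2 days of adaptation, were treated for 1 h. The groups were PO (10 µM progesterone), TO (10 µM testosterone) and the mock treatment DMSO (0.12% DMSO, the solvent that PO also contained), with 4 libraries each, stated to be biological replicates. Progesterone and testosterone share the steroid skeleton and differ in the group on ring D, which is an acetyl side chain in progesterone and a hydroxyl group in testosterone.

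SA is the plant hormone of defence against biotrophic pathogens. After recognition of a pathogen, most SA of *A. thaliana* leaves is made from isochorismate, which ICS1 produces in the chloroplast and the transporter EDS5 carries to the cytosol. EDS1 and PAD4 form a complex that passes on the signal of intracellular immune receptors, the related transcription factors CBP60g and SARD1 switch on ICS1, and NPR1 binds SA and, together with TGA transcription factors, switches on the PR genes. PR1 is the classic late marker of the SA response, PR2 is a beta-1,3-glucanase and PR5 is a thaumatin-like protein.

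The 300 bases before the annotated transcription start are shown for ICS1, whose level lay below that of DMSO in every PO and TO library, for SARD1, its regulator, and for PR2, whose highest counts came from PO replicate 1. Capitals mark the cores of known SA motifs on either strand. These are TTGAC, the core of the W-box that WRKY factors bind, TGACG, the core that TGA factors bind and that shares the letters TGAC with the W-box, and GAAATTT, bound by CBP60g and SARD1. Each run is written 5′ to 3′ on the strand of the gene and ends at the base before the start, in the TAIR10.1 assembly (RefSeq).

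ICS1, chr1:28069995-28070294, plus strand: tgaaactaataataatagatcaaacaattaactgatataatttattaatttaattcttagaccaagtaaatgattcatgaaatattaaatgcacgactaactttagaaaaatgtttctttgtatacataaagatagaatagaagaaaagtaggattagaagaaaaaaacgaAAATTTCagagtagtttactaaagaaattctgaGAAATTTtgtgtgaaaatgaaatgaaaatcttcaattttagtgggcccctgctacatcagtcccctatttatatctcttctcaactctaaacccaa
SARD1, chr1:27749249-27749548, minus strand: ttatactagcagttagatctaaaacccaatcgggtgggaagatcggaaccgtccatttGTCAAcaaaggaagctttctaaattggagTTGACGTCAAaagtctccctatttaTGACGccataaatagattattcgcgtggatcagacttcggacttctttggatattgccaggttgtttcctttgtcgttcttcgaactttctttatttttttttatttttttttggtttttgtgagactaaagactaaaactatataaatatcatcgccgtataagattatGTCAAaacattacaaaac
PR2, chr3:21189968-21190267, minus strand: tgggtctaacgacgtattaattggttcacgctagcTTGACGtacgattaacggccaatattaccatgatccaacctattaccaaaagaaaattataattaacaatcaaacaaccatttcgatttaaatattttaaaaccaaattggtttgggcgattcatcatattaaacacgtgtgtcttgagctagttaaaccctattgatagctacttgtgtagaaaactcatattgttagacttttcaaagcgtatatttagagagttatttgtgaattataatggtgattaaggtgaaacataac

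TTGAC occurred in 5 of the 9 windows examined, against 50.4% of 27443 windows of the same length before protein-coding genes. TGACG occurred in 3 of the 9, against 21.3% of all windows, and GAAATTT in 1 of the 9, against 14.9%. The window of ICS1 was the one with GAAATTT, at 129 and 96 bases before the start, and held neither of the other cores. The window of SARD1 held 4 TTGAC cores, at 242, 213, 208 and 18 bases before the start, and 3 TGACG cores, at 212, 209 and 188 bases. In PR2, a TTGAC at 265 bases ran into a TGACG at 264 bases. A match describes the letters of these windows and is no measurement of binding.

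Total counts lay between 41036335 and 63445014 per library. Levels are given as CPM, the counts scaled to a common library size after TMM scaling. A library with 3 counts of a gene, the limit that a count of 0 allows, would stand at 0.0470 to 0.0723 CPM, which covers counting error only. The 4 leaf markers (RBCS1A, CAB1, CAB3 and RCA) summed to 28992 to 32681 CPM in PO, 29305 to 31696 CPM in TO and 30265 to 37225 CPM in DMSO. The 4 root markers summed to at most 2.26 CPM in PO, 1.83 CPM in TO and 1.59 CPM in DMSO, with IRT1 at 0 in 11 of the 12 libraries. The 3 flower markers summed to 4.83 to 15.1 CPM in PO, 4.33 to 13.3 CPM in TO and 1.85 to 12.7 CPM in DMSO, nearly all of it PI, while AP3 was at 0 in every DMSO library. The part of these flower markers in the results was not tested. In bulk samples such as these, fewer cells of a type and less RNA per cell cannot be told apart.

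None of the 9 tested genes passed an adjusted p of 0.05 in PO, in TO or between them (quasi-likelihood test of edgeR, Benjamini-Hochberg adjustment over the 23203 loci tested). The share of all loci called was 0.168% in PO (39 loci), 0.284% in TO (66 loci) and 0% between PO and TO (0 loci). DESeq2 called none of the 9 either, where it called 1.42% of all loci in PO, 1.37% in TO and 0.0259% between them. At an unadjusted p under 0.05, edgeR gave 2 genes lower in PO (ICS1 and PAD4, background 6.16%) and 1 higher in PO (PR2, background 5.96%). In TO it gave 4 genes lower (ICS1, EDS5, EDS1 and SARD1, background 4.87%) and 0 higher (background 4.64%). DESeq2 gave 1 higher (background 6.24%) and 2 lower (background 6.83%) in PO, and 6 lower in TO (background 5.34%). The logFC (log2 of the first over the second group) was below 0 for 7 of the 9 genes in PO, with a median of -0.23, and for 7 of the 9 in TO, with a median of -0.46, beside medians over all loci of -0.01 in PO and 0.00 in TO. Both comparisons use the same 4 DMSO libraries. All directions follow the group names in the sample titles, which no independent measure in these files checks. For UGT76B1, PNP-A, PROPEP3, CML37 and MPK11, described below, the study lists the opposite direction.

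Single libraries stood apart in several of these genes. DMSO replicate 2 had the highest level of the DMSO group for 6 of the 9 tested genes, where 25.7% of all tested loci had their DMSO maximum in that library. PO replicate 1 had the highest level of all 12 libraries for PR1 and PR2. TO replicate 1 was the highest TO library for 5 of the 9 tested genes, beside 27.5% of all loci. Values without such a library are given beside the results that rest on it.

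**Figure D1:**
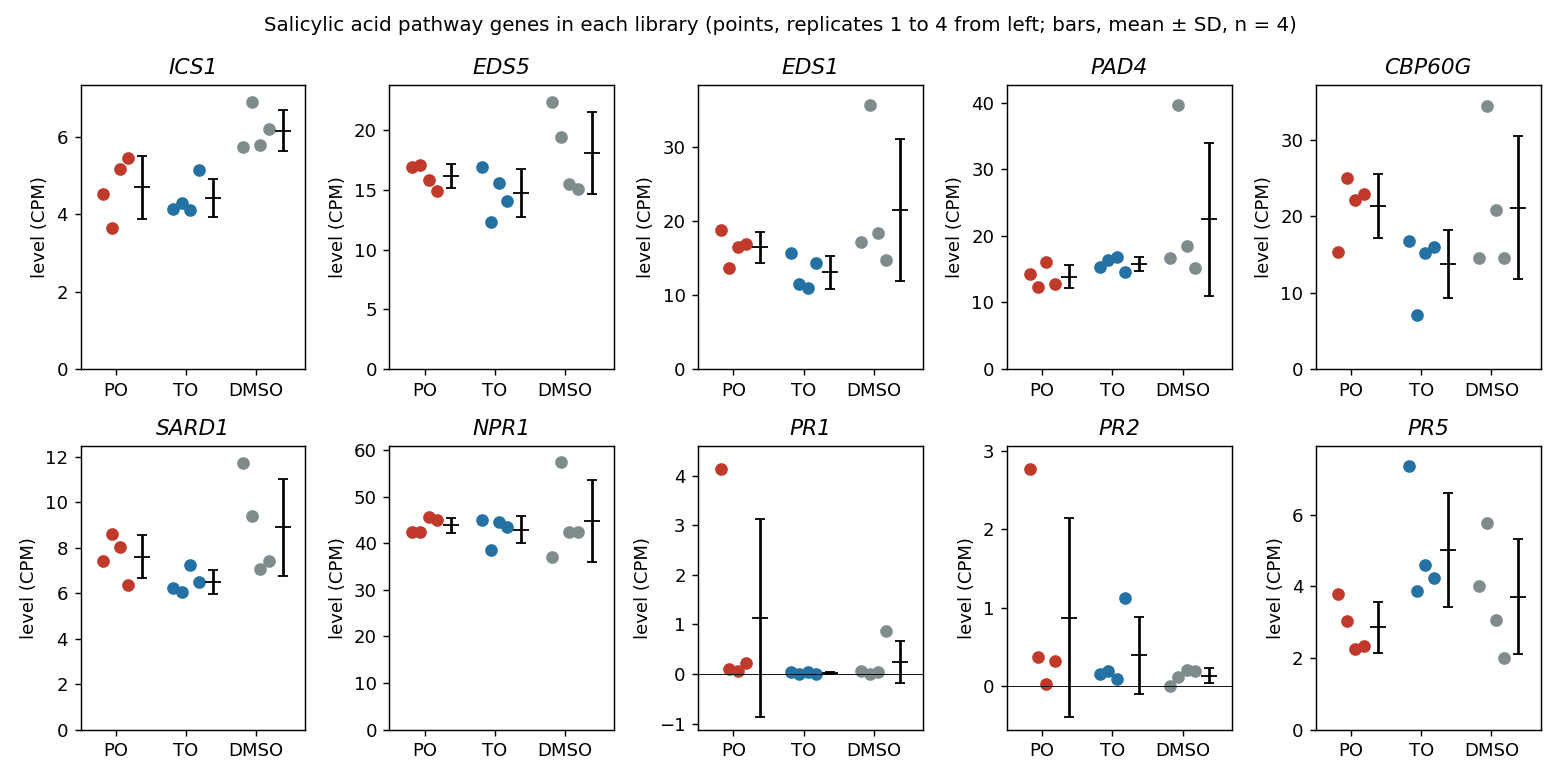
Level (CPM, linear axis) of the 10 SA pathway genes in each library of PO, TO and DMSO, with points for replicates 1 to 4 from left to right and bars for the mean ± SD (n = 4). The ICS1 points of PO and TO all lie below the 4 DMSO points, DMSO replicate 2 stands high for EDS1, PAD4, CBP60G and NPR1, and PO replicate 1 stands high for PR1 and PR2.

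ICS1, the isochorismate synthase, lies on chromosome 1 at 28070295 to 28074177 (plus strand, annotated as EDS16). It had 4.53, 3.64, 5.16 and 5.46 CPM in PO and 4.14, 4.29, 4.12 and 5.14 CPM in TO, against 5.74, 6.90, 5.80 and 6.21 CPM in DMSO. Every PO and every TO library was thus below every DMSO library, as for 0.59% of all tested loci (137 loci). No overlap on the low side was found for 2.72% of loci in PO and for 2.48% in TO. The means were 4.70 ± 0.806 CPM in PO, 4.42 ± 0.483 CPM in TO and 6.16 ± 0.535 CPM in DMSO (SD, n = 4 each). The logFC was -0.39 ± 0.14 (SE) in PO, with a 95% interval of -0.70 to -0.09 and an adjusted p of 0.307 (edgeR). In TO the logFC was -0.48 ± 0.14, with an interval of -0.78 to -0.17 and an adjusted p of 0.245 (edgeR). The level was thus 0.761 times that of DMSO in PO and 0.718 times in TO. Without DMSO replicate 2, the highest ICS1 library, the logFC was -0.34 in PO and -0.42 in TO. Without PO replicate 2, the lowest PO library, it was -0.29 in PO, and the unadjusted p was no longer under 0.05. The smallest adjusted p of any tested pathway gene under any alternative was that of ICS1 in TO with DESeq2, 0.0848.

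EDS5 encodes the transporter that exports isochorismate from the chloroplast and lies on chromosome 4 at 18185437 to 18189224. It had 16.9, 17.1, 15.8 and 14.9 CPM in PO and 17.0, 12.3, 15.5 and 14.1 CPM in TO, against 22.4, 19.4, 15.5 and 15.1 CPM in DMSO. DMSO replicates 1 and 2 were the highest libraries, and DMSO replicates 3 and 4 lay within the range of PO. The logFC was -0.16 in PO (interval -0.45 to 0.12, edgeR adjusted p 0.637) and -0.30 in TO (interval -0.58 to -0.02, edgeR adjusted p 0.496). Without DMSO replicate 1 it was -0.04 in PO and -0.18 in TO, and the unadjusted p in TO was no longer under 0.05. EDS5 overlaps the exons of AT4G39040 on the opposite strand by 213 bases, and the strand setting of the counting was not given in the sources used here.

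EDS1 and PAD4 encode the lipase-like partners of the same immune complex. EDS1 lies on chromosome 3 at 17755329 to 17758147 (minus strand) and PAD4 on the same chromosome at 19431095 to 19434450 (plus strand). EDS1 had 18.8, 13.6, 16.5 and 16.9 CPM in PO and 15.7, 11.5, 10.9 and 14.3 CPM in TO, against 17.2, 35.7, 18.3 and 14.7 CPM in DMSO. PAD4 had 14.2, 12.3, 16.1 and 12.7 CPM in PO and 15.3, 16.4, 16.9 and 14.5 CPM in TO, against 16.6, 39.6, 18.5 and 15.2 CPM in DMSO. For both genes, DMSO replicate 2 was the highest of the 12 libraries, at 2.08 times the median of the other DMSO libraries for EDS1 and 2.38 times for PAD4. The logFC of EDS1 was -0.39 ± 0.23 in PO (edgeR adjusted p 0.509) and -0.71 ± 0.23 in TO (edgeR adjusted p 0.296). Without DMSO replicate 2 it was -0.03 in PO and -0.36 in TO. The logFC of PAD4 was -0.70 ± 0.24 in PO (edgeR adjusted p 0.293) and -0.51 ± 0.24 in TO (edgeR adjusted p 0.529), and without that library -0.28 in PO and -0.09 in TO. For both genes the other DMSO libraries overlapped those of PO and of TO. EDS1 has a neighbouring copy, EDS1B (AT3G48080), with 86.0% identity over 1057 aligned bases and a longest identical run of 72 bases, so that some reads could belong to either.

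CBP60G and SARD1 encode the related transcription factors that act on ICS1. CBP60G lies on chromosome 5 at 9475679 to 9478777 and had 15.4, 25.1, 22.2 and 23.0 CPM in PO and 16.8, 7.13, 15.2 and 16.0 CPM in TO, against 14.6, 34.5, 20.9 and 14.6 CPM in DMSO. DMSO replicate 2 was again the highest library and TO replicate 2 the lowest. The logFC was 0.02 ± 0.29 in PO (edgeR adjusted p 0.983) and -0.62 ± 0.29 in TO (edgeR adjusted p 0.536). Without DMSO replicate 2 it was 0.36 in PO and -0.28 in TO, and without TO replicate 2 it was -0.40 in TO. SARD1 lies on chromosome 1 at 27744790 to 27749248 (minus strand). It had 7.40, 8.59, 8.03 and 6.38 CPM in PO and 6.23, 6.05, 7.23 and 6.49 CPM in TO, against 11.7, 9.40, 7.05 and 7.40 CPM in DMSO. Here DMSO replicate 1 was the highest library, and TO replicate 3 was the only TO library above the lowest DMSO library. The logFC of SARD1 was -0.23 ± 0.16 in PO (edgeR adjusted p 0.569) and -0.46 ± 0.16 in TO (interval -0.79 to -0.12, edgeR adjusted p 0.334). Without DMSO replicate 1 it was -0.06 in PO and -0.29 in TO, and the unadjusted p in TO was no longer under 0.05. SARD1 overlaps GIP2 on the opposite strand by 441 exonic bases.

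NPR1, the SA receptor and coactivator, lies on chromosome 1 at 23852748 to 23855658 (minus strand). It had 42.4, 42.5, 45.6 and 45.0 CPM in PO and 45.0, 38.6, 44.6 and 43.4 CPM in TO, against 36.9, 57.5, 42.3 and 42.3 CPM in DMSO. DMSO replicates 1 and 2 were the lowest and the highest of all 12 libraries, and all PO and TO libraries lay between them. The logFC was -0.03 (interval -0.27 to 0.21) in PO and -0.06 (interval -0.31 to 0.18) in TO, with edgeR adjusted p of 0.934 and 0.924. Without DMSO replicate 2 the sign turned, to 0.11 in PO and 0.08 in TO. Its intervals were the narrowest of the 9 genes. NPR1 shares 214 exonic bases with the long non-coding RNA AT1G08667 and 38 with the pseudogene AT1G64270, both on the opposite strand.

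PR1 (chromosome 2, 6241640 to 6242541, minus strand) was close to its counting limit in most libraries. It had 206, 6, 4 and 10 counts in PO and 2, 0, 2 and 0 counts in TO, against 4, 0, 2 and 44 counts in DMSO. PO replicate 1 (4.13 CPM) and DMSO replicate 4 (0.876 CPM) stood far above the other libraries of their groups, which reached at most 0.229 CPM in PO and 0.0638 CPM in DMSO. PO replicate 1 had 43.9 times the median of the other PO libraries. No fold change is given, since the difference between groups would rest on single libraries.

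PR2 (chromosome 3, 21188397 to 21189967, minus strand, annotated as BGL2) had 138, 24, 2 and 14 counts in PO and 8, 10, 4 and 58 counts in TO, against 0, 6, 10 and 10 counts in DMSO. In CPM this was 2.77, 0.376, 0.0330 and 0.321 in PO and 0.155, 0.197, 0.0964 and 1.12 in TO, against 0, 0.121, 0.204 and 0.199 in DMSO. PO replicate 1 and TO replicate 4 were high, and the remaining libraries of all groups overlapped. The logFC was 2.75 ± 1.15 in PO (interval 0.29 to 5.21, edgeR adjusted p 0.366) and 1.62 ± 1.17 in TO (interval -0.89 to 4.14, edgeR adjusted p 0.736). Without PO replicate 1 the logFC in PO was 0.91, and without TO replicate 4 the logFC in TO was 0.24.

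PR5 (chromosome 1, 28177670 to 28179022, plus strand) had 3.79, 3.04, 2.24 and 2.34 CPM in PO and 7.35, 3.88, 4.60 and 4.23 CPM in TO, against 4.02, 5.78, 3.06 and 1.99 CPM in DMSO. The DMSO libraries spanned the whole range of PO and overlapped TO in all but TO replicate 1. The logFC was -0.38 ± 0.30 in PO (edgeR adjusted p 0.628) and 0.43 ± 0.30 in TO (edgeR adjusted p 0.713). Without DMSO replicate 2 it was -0.09 in PO and 0.72 in TO, and without DMSO replicate 4 it was -0.58 in PO and 0.23 in TO. Without TO replicate 1 it was 0.19 in TO. In PO replicate 1, the library in which PR1 and PR2 were high, PR5 was within the range of DMSO. That library was also the highest PO library for PR5, at 1.62 times the median of the other PO libraries.

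**Figure D2:**
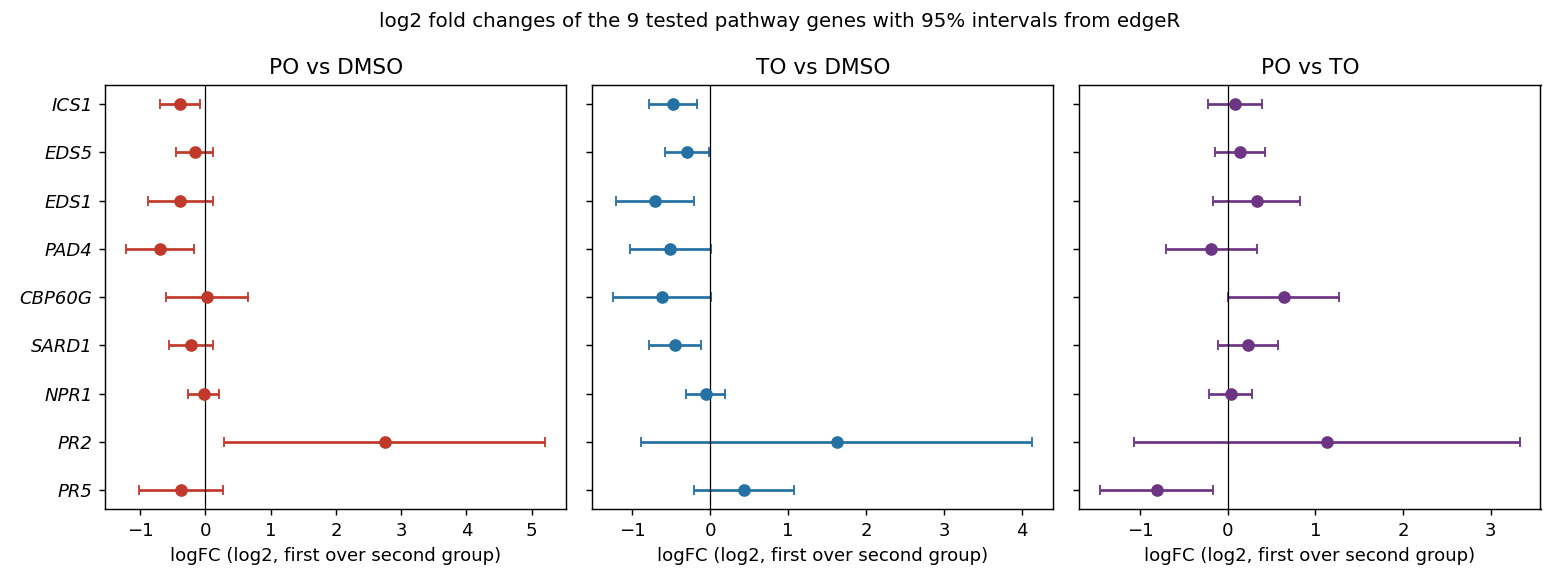
logFC (log2) of the 9 tested genes in PO against DMSO, TO against DMSO and PO against TO, with 95% intervals from edgeR's quasi-likelihood fit. The intervals of ICS1 lie below 0 in PO and TO and include 0 between them, and the intervals of PR2 are the widest.

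To compare levels between genes, CPM were divided by exonic length. NPR1 had the highest level, with 16.8 CPM per kb in PO, 16.4 in TO and 17.1 in DMSO. In DMSO the order of mean CPM per kb went on with PAD4 (9.97), CBP60G (9.16), EDS1 (8.43) and EDS5 (8.01), then SARD1 (3.71), PR5 (3.39) and ICS1 (2.83), and ended with PR1 (0.272) and PR2 (0.0887). All neighbours in this order overlapped over the 4 DMSO libraries, with the exception of EDS5 over SARD1 and of ICS1 over PR1. ICS1 thus had the lowest level of the 8 genes outside the pair PR1 and PR2, at 2.16 CPM per kb in PO and 2.03 in TO.

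PO and TO were applied at the same dose and for the same time, and the 2 treatments are compared here over the 9 genes. No steroid amounts in these leaves at 1 h were available. The parts of chemical structure and of uptake in a difference between PO and TO were not tested. The smallest adjusted p over all loci was 0.628 (edgeR), that of PR5 included. PR5 was lower in every PO library (2.24 to 3.79 CPM) than in every TO library (3.88 to 7.35 CPM), as for 2.1% of all loci. Its logFC was -0.81 ± 0.30, with an interval of -1.46 to -0.17 and an unadjusted p of 0.0169. Without TO replicate 1 it was -0.57, and the unadjusted p was no longer under 0.05. CBP60G was the other gene with an unadjusted p under 0.05 (0.0479, adjusted 0.649, edgeR), where 7.68% of all loci passed in either direction. Its logFC was 0.64 (interval 0.01 to 1.27), and PO replicate 1, at 15.4 CPM, lay within the TO libraries. Without TO replicate 2, the lowest library, it was 0.42, and the unadjusted p was no longer under 0.05. DESeq2 gave the same number, 1 higher and 1 lower (background 8.47% in either direction). For the synthesis genes the PO and TO libraries overlapped, with a logFC of 0.08 (interval -0.22 to 0.39) for ICS1 and 0.14 (interval -0.15 to 0.42) for EDS5. These bounds are the largest differences that the intervals allow for the synthesis genes. The logFC was 0.33 (interval -0.17 to 0.82) for EDS1, -0.19 (interval -0.71 to 0.33) for PAD4, 0.23 (interval -0.11 to 0.57) for SARD1 and 0.03 (interval -0.21 to 0.28) for NPR1. PR2 had the widest interval, -1.08 to 3.33 around 1.13, and its logFC was -0.71 without PO replicate 1 and 2.51 without TO replicate 4.

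A wider list of 49 SA genes was drawn up by role, of which 43 were tested. It holds synthesis genes, partners of EDS1, transcription factors, SA receptors and their interactors, enzymes that modify SA, and SA targets. edgeR called none of the 43 in PO or TO. At an unadjusted p under 0.05, 5 were higher (background 5.96%) and 6 lower (background 6.16%) in PO, and 6 were higher (background 4.64%) and 5 lower (background 4.87%) in TO. The median logFC was -0.01 in PO and -0.04 in TO. DESeq2 called UGT76B1 and EDS1B in PO (adjusted p 0.00220 and 0.0407) and UGT74F2 in TO (adjusted p 0.0375). Over all loci it called 1.42% in PO and 1.37% in TO.

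Among the enzymes that modify SA, 6 of 9 were tested, and the logFC of 6 of these 6 was above 0 in TO and of 3 of these 6 in PO, beside 50.1% of all loci in TO and 48.2% in PO. For 4 of the 6, the logFC in TO was only 0.04 to 0.31. UGT74F2, which attaches glucose to SA, had 74.0, 91.8, 101.4 and 99.8 CPM in PO and 76.1, 121.5, 126.1 and 82.4 CPM in TO, against 60.6, 75.2, 60.5 and 71.4 CPM in DMSO. All TO libraries stood above all DMSO libraries, as for 2.9% of loci, whereas PO replicate 1 fell within DMSO. The logFC was 0.46 in PO (edgeR adjusted p 0.305) and 0.60 in TO (edgeR adjusted p 0.199). UGT76B1, which glucosylates SA, isoleucic acid and N-hydroxypipecolic acid, had 3.29, 9.19, 12.9 and 7.41 CPM in PO and 6.21, 3.13, 7.86 and 4.96 CPM in TO, against 2.49, 3.80, 1.98 and 2.79 CPM in DMSO. PO replicate 1 and TO replicate 2 overlapped DMSO, and the other libraries of PO and TO were above all of DMSO. Its logFC was 1.57 ± 0.36 in PO (edgeR adjusted p 0.147) and 1.00 ± 0.36 in TO (edgeR adjusted p 0.359). Without PO replicate 1, the lowest PO library for this gene, edgeR called UGT76B1 in PO (adjusted p 0.0158). That fit called 144 of 23480 loci in PO, beside 39 of 23203 with all libraries. Leaving out any other single library gave no call of UGT76B1.

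ICS2, the second isochorismate synthase gene, had 0.439 to 1.18 CPM in PO and 1.01 to 1.70 CPM in TO, against 0.358 to 1.79 CPM in DMSO. All 3 ranges overlapped, and the logFC was -0.42 in PO and 0.38 in TO. PAL1, a phenylalanine ammonia-lyase of the other route to SA, had 14.6 to 21.3 CPM in PO and 15.3 to 28.7 CPM in TO, against 42.2, 76.4, 22.8 and 17.1 CPM in DMSO, with a logFC of -1.17 in PO and -0.94 in TO (edgeR adjusted p 0.249 and 0.405). DMSO replicates 1 and 2 were the high ones, and without DMSO replicate 2 the logFC of PAL1 was -0.63 in PO and -0.41 in TO. PBS3, which links isochorismate to glutamate, was higher in every PO library than in every DMSO library, as for 2.85% of loci, with a logFC of 0.96 in PO and 0.59 in TO, and it was chosen for this after its values were seen. In TO its logFC was -0.06 without TO replicate 1.

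Of the 7 tested genes around EDS1, the logFC was above 0 for 4 in PO and for 2 in TO. EDS1B had 1.30, 0.894, 0.825 and 1.22 CPM in PO and 0.967, 1.52, 1.42 and 1.74 CPM in TO, against 2.81, 1.81, 1.51 and 1.93 CPM in DMSO. All PO libraries lay below DMSO, as for 2.72% of all loci. The logFC was -0.94 in PO and -0.52 in TO (edgeR adjusted p 0.208 and 0.554). Without DMSO replicate 1 it was -0.31 in TO. EDS1B overlaps AT3G48070 on the opposite strand by 503 exonic bases. NDR1, a membrane protein of resistance signalling, had a logFC of -0.47 in PO and -0.40 in TO. ADR1-L2, a helper of intracellular immune receptors named here after its values were seen, had a logFC of 0.62 in PO (edgeR adjusted p 0.292) and 0.03 in TO. WRKY46, a transcription factor of SA defence, had 0.726 to 1.52 CPM in PO and 0.709 to 2.18 CPM in TO, against 1.57 to 3.38 CPM in DMSO. Its PO libraries lay below those of DMSO (background 2.72%). The logFC was -1.03 in PO and -0.81 in TO (edgeR adjusted p 0.307 and 0.514).

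NPR3 and NPR4 are SA receptors that act as repressors of SA genes. NPR4 had 19.0, 21.7, 26.3 and 21.9 CPM in PO and 24.2, 24.4, 22.6 and 19.0 CPM in TO, against 17.5, 22.5, 14.1 and 14.1 CPM in DMSO. DMSO replicate 2 lay within PO and TO, and the other DMSO libraries lay below both. The logFC was 0.38 in PO and 0.40 in TO (edgeR adjusted p 0.341 and 0.378). NPR3 had a logFC of 0.17 in PO and -0.05 in TO. PNP-A, a secreted natriuretic-like peptide and SA target, had 0.361 to 1.16 CPM in PO and 0.482 to 1.01 CPM in TO, against 2.93, 2.46, 1.43 and 0.398 CPM in DMSO, with a logFC of -1.37 in PO and -1.30 in TO (edgeR adjusted p 0.326 and 0.428). DMSO replicate 4 was within the range of PO and below that of TO. The other tested SA targets, named after their values were seen, had a logFC above 0. Their PO and TO libraries overlapped those of DMSO. The logFC was 0.67 in PO and 0.85 in TO for GRX480, a glutaredoxin gene (edgeR adjusted p 0.481 and 0.482). For AIG1 it was 0.90 in PO and 1.02 in TO (edgeR adjusted p 0.457 and 0.521). Without TO replicate 4 the logFC of AIG1 was 0.42 in TO, and without PO replicate 1 that of GRX480 was 0.40 in PO. UGT76B1 and PNP-A are among the loci that the study itself picked from these libraries. The study lists UGT76B1 as reduced and PNP-A as enhanced by both steroids, opposite to the direction that the sample titles give. The reason for this difference was not tested.

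**Figure D3:**
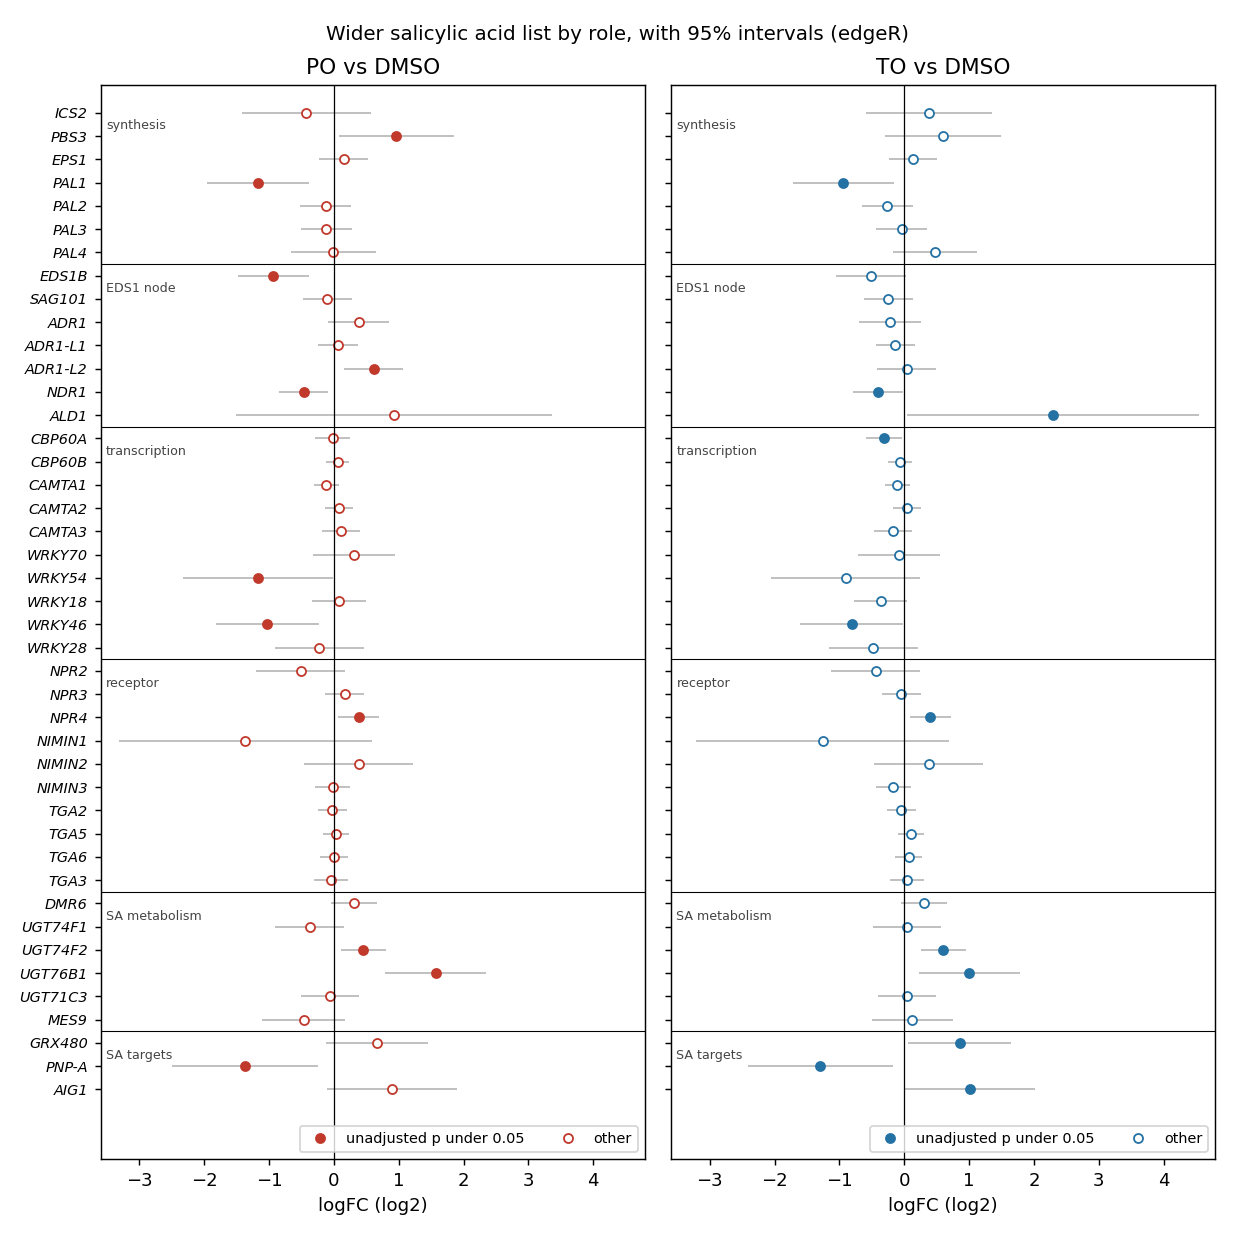
logFC (log2) of the 43 tested genes of the wider SA list against DMSO, by role, in PO and in TO, with 95% intervals from edgeR. Filled points have an unadjusted p under 0.05. In both comparisons, UGT76B1, UGT74F2 and NPR4 are filled on the high side and PAL1, NDR1, WRKY46 and PNP-A on the low side.

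A list of 10 early defence genes was read beside the pathway, since EDS1, PAD4, CBP60G and NPR1 were high in DMSO replicate 2. DMSO replicate 2 had the highest level of the DMSO group for 9 of these 10 genes, FRK1 being the exception. TO replicate 1 was the highest TO library for 8 of the 10. WRKY33, a regulator of camalexin synthesis, had 47.5 to 57.4 CPM in PO and 25.0 to 51.0 CPM in TO, against 41.5, 115.2, 58.1 and 50.5 CPM in DMSO. MPK11, a mitogen-activated protein kinase, had 0.972 to 3.17 CPM in PO and 0.591 to 2.30 CPM in TO, against 2.55, 14.0, 3.70 and 3.98 CPM in DMSO. In DMSO replicate 2, EDS1, PAD4 and CBP60G stood at 2.08, 2.38 and 2.36 times the median of the other DMSO libraries, and NPR1 at 1.36 times. The 10 early defence genes ranged from 1.06 times (FRK1) to 3.79 times (MPK11), with WRKY33 at 2.28 times. edgeR called none of the 10 in PO or TO, and at an unadjusted p under 0.05 there were 3 lower genes in PO (background 6.16%) and 7 in TO (background 4.87%). DESeq2 called 0 in PO (background 1.42%) and 1, PROPEP3, in TO (background 1.37%). The median logFC was -0.38 in PO and -0.68 in TO, and without DMSO replicate 2 it was -0.03 in PO and -0.35 in TO. The median over the SA pathway genes without that library was -0.06 in PO and -0.27 in TO. It covers 10 genes, since PR1 passed the filter in that fit, whereas the medians with all libraries cover 9. That library was singled out because pathway genes were high in it, so these medians cannot test a link between the lists. The part of early defence expression in the SA pathway values was not tested. PROPEP3, CML37 and MPK11 of this list had also been picked by the study from these libraries. The study lists them as enhanced, again opposite to the direction that the sample titles give.

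**Figure D4:**
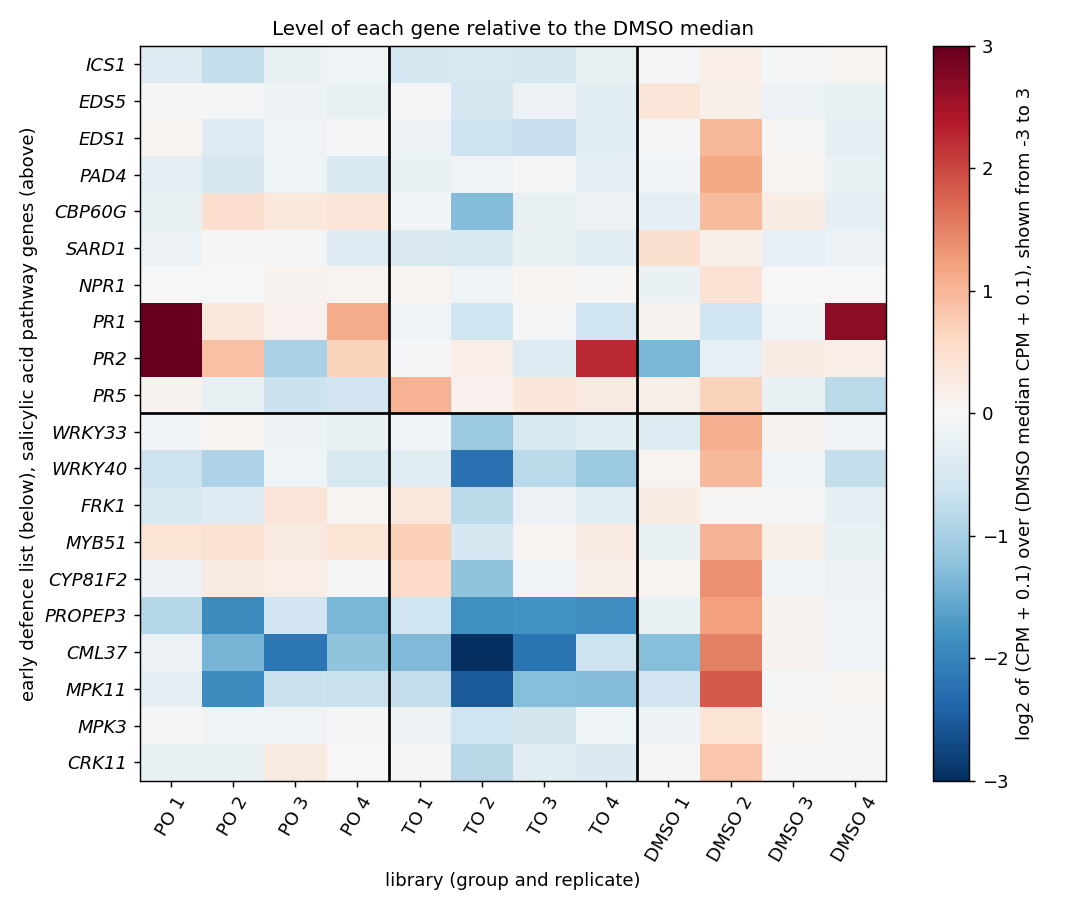
Level of the 10 SA pathway genes (upper block) and the 10 early defence genes (lower block) in each library, as log2 of (CPM + 0.1) over (median CPM of DMSO + 0.1), with colours from -3 to 3. The column of DMSO replicate 2 is high for EDS1, PAD4 and CBP60G and for 9 of the 10 early defence genes, while ICS1 is low throughout PO and TO.

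The genes most like ICS1, SARD1 and PR1 were taken by Pearson correlation of log2 CPM over the 12 libraries, as a description without a test, since the libraries share treatment groups. Most like ICS1 were the non-coding locus AT5G38212 (r = 0.91), the protein kinase gene AT5G38210 (r = 0.90), which overlaps it on the opposite strand, and the cyclophilin gene AT2G21130 (r = 0.88). AT2G21130 averaged 74.2 CPM in PO and 74.3 CPM in TO, against 93.9 CPM in DMSO. Most like SARD1 were the ankyrin repeat gene AT4G10720 (r = 0.90), BAG7 (r = 0.90) and the receptor kinase gene AT5G53320 (r = 0.89). Most like PR1 was PCR1 (r = 0.89), with r = 0.70 without PO replicate 1, followed by ATHSRP54A (r = 0.83, and 0.63 without that library) and LPA2 (r = 0.79, and 0.87 without it).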

How the data were processed

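RNAseq counts of 12 libraries, 4 each of PO, TO and DMSO, were analysed, with groups and replicate numbers from the sample titles, on which every direction rests. The labels give the age both as 7 days and, for growth, as 10 days. Libraries were prepared strand-specifically and sequenced as read pairs. The authors checked reads with FastQC 0.11.9, trimmed them with fastp 0.23.2 and used HISAT2 2.2.1 for alignment to TAIR10.1, SAMtools 1.11 for sorting and featureCounts 2.0.1 for counting. The deposited values are raw whole-number counts per locus. Its settings for strand, overlaps and pairs were not given in the sources used here. Between 67.8% and 72.3% of the counts from 1 to 20 were even in each library, so that many read pairs may have been counted as 2.

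Counts were tested with edgeR 4.0.16 (R 4.3.3) by the quasi-likelihood test on all 12 libraries (TMM scaling, filterByExpr with a minimum count of 10, prior count 0.125, 9 residual degrees of freedom), with Benjamini-Hochberg adjustment over 23203 loci. Intervals are 95% intervals from this fit. DESeq2 1.42.0, other scalings and filters, a replicate block and leaving out each library were alternatives. The method was tested on simulated data. The genes named are all 10 pathway genes, ICS2, EDS1B, NPR3 and NPR4 of the wider list and every wider gene whose unadjusted p was under 0.05 in PO and likewise in TO. PBS3, ADR1-L2, GRX480 and AIG1 were named after their values were seen. Likeness used log2 CPM with a prior count of 2, and loci that overlap the gene were left out. The pathway genes and all lists were chosen with earlier results of these data known. Symbols, positions and promoter windows come from the RefSeq annotation of TAIR10.1, and 1 of the 10 windows is not reported here. Python 3.11.15, with matplotlib 3.10.9, drew the plots.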

Additional observations from a re-analysis of the deposited data

Results flagged for a closer look

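A single library lay far from the other libraries of its group in 7 of the 30 sets of 4 libraries (10 genes in 3 groups) by Dixon's criterion at the 95% level (the gap to the next library over the range). For normally distributed values, chance gives about 1 such set in 20. That rate does not hold for the low, skewed counts of PR1 and PR2. The sets are also not independent, since 1 library can stand apart for several genes.

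For PR1, PO replicate 1 had 4.13 CPM, with 0.229 CPM in the next PO library, and DMSO replicate 4 had 0.876 CPM, with 0.0638 CPM in the next DMSO library. For PR2, PO replicate 1 had 2.77 CPM, with 0.376 CPM in the next PO library, and TO replicate 4 had 1.12 CPM, with 0.197 CPM in the next TO library. For PAD4, DMSO replicate 2 had 39.6 CPM, with 18.5 CPM in the next DMSO library. CBP60G was low in TO replicate 2, at 7.13 CPM, with 15.2 CPM in the next TO library. ICS1 had 5.14 CPM in TO replicate 4, with 4.29 CPM in the next TO library, and remained below all DMSO libraries there.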

How the results depend on the processing

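The 27 results of the 9 tested genes (3 comparisons each) were recomputed under 20 alternatives. Of the 536 values obtained, 525 kept their direction and stayed above an adjusted p of 0.05, and the other 11 changed sign without passing it. Leaving out libraries one at a time gave a logFC of -0.12 to 0.36 for CBP60G in PO, -0.11 to 0.11 for NPR1 in PO, -0.14 to 0.079 for NPR1 in TO, -0.015 to 0.058 for NPR1 between PO and TO, and -0.71 to 2.51 for PR2 between PO and TO. With DMSO replicate 2 and PO replicate 1 left out together, an alternative added after seeing the data, NPR1 had 0.12 in PO and 0.084 in TO, and PR2 had -0.71 between PO and TO. PR2 did not pass the filter of at least 10 counts in every library, nor the standard filter in a fit of TO and DMSO alone. The number of wider list genes called in PO was 0, but 2 with DESeq2, 1 with both libraries left out and 0 to 1 with single libraries left out, where PO replicate 1 gave the 1. In TO it was 0, but 1 with DESeq2. Over all loci, DESeq2 called 330 in PO, 319 in TO and 6 between them, and edgeR without PO replicate 1 called 144 in PO, beside 39, 66 and 0. The cause of these differences was not tested. With the replicate number as a block, 0 pathway genes were called in each comparison, and 50, 73 and 0 loci over the whole table. Deviations of same-numbered libraries correlated between -0.14 and 0.20, so the numbers were not taken as pairs. PR1 and PR2 are limited by depth, with 10 counts or fewer in most libraries.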
